A study of Mus musculus with 4 samples.

Results

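Cholesterol and the glycolipids of myelin are assembled by a defined set of enzymes, and 33 genes for them were described here in the dorsal root ganglia of mice, where the cell bodies of sensory neurons lie. The members were named by gene symbol, with earlier results of these data known. Each was represented by its brightest probe set, the one with the highest mean intensity over the 4 arrays. The 33 genes are 16 sterol synthesis enzymes, 3 sterol regulators, 6 enzymes of ceramide and galactolipid synthesis and 8 of fatty acid synthesis. They were read among 13542 genes tested. Total RNA of freshly dissected ganglia was hybridised to Affymetrix mouse arrays, 2 from ganglia of one level and 2 from ganglia of the other, called the sample-1 level and the sample-2 level as in the sample titles. The labels do not name the levels and give no genotype, strain, age, sex or number of animals. Nor do they say whether different animals supplied the arrays of a level. The p-values therefore rest on the spread between arrays of a level only, pooled over probe sets as described below, and that spread may be technical. Dissection was the only treatment named, and it was the same for all arrays. Prph and Avil, which mark sensory neurons, were bright on every array, at 5658 to 6236 and 4066 to 4702. The comparison asks which lipid synthesis transcripts differed between ganglia of the 2 levels.

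Myelin is unusually rich in cholesterol and in galactosylceramide and its sulfated form, sulfatide. Schwann cells, which wrap peripheral axons, make most of the cholesterol of their myelin themselves, while neurons and satellite glial cells also express the sterol pathway, since every cell membrane needs cholesterol. SREBP transcription factors, encoded by Srebf1 and Srebf2, switch on sterol and fatty acid genes when membrane cholesterol is low. They bind the sterol regulatory element, often beside a CCAAT box bound by the factor NF-Y. Galactolipid synthesis differs in that its committed enzymes, such as Ugt8a, are made mainly by myelinating cells.

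The promoter sequences below show which letters the sterol genes hold in front of their starts, and those of the galactolipid and fatty acid genes whose intensities differed most. RefSeq promoters on mouse build GRCm38.p6 were found by symbol for 27 of the 33 members. The 250 bases before each start were searched on both strands for the sterol regulatory element TCACNCCAC and for ATTGG, the CCAAT box read on the other strand. All 13 sterol enzymes with a promoter in the table held ATTGG or CCAAT before at least 1 start, against 37.5% of all 27025 genes in the table. All 3 regulators, 3 of 5 ceramide and galactolipid genes and 3 of 6 fatty acid genes also did. TCACNCCAC was found for Hmgcs1 alone among the 27, and for 1.22% of all genes. A match is a run of letters, not a shown binding site, and a missing match says only that these letters are not in this window. In Fasn a CCAAT and an ATTGG overlapped. The 180 bases before the first listed start follow, 5′ to 3′ on the strand of the gene, for the first 4 sterol enzymes of the pathway with a promoter in the table and for Ugt8a, Gal3st1 and Elovl1. Capitals mark matches to either motif on either strand.
Hmgcs1: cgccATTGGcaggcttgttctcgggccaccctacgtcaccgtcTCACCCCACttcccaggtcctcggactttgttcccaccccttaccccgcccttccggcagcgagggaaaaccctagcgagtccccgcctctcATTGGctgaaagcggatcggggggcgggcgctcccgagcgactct
Mvk: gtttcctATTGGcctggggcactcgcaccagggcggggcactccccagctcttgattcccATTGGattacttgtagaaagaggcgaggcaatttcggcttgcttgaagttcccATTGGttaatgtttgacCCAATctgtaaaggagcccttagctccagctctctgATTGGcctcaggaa
Pmvk: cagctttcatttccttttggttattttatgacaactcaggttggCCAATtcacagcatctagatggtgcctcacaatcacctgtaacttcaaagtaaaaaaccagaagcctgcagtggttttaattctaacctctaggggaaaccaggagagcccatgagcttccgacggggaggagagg
Mvd: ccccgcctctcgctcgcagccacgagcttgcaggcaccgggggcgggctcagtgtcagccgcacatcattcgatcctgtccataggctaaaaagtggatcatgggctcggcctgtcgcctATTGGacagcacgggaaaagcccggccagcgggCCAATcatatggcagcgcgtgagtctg
Ugt8a: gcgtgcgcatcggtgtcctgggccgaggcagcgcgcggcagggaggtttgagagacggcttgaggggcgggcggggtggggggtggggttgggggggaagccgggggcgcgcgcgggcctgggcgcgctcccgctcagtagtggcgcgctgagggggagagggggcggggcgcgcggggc
Gal3st1: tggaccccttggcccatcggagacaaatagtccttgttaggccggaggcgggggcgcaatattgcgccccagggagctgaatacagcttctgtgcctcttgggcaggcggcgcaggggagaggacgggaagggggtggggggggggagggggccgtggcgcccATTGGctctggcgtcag
Elovl1: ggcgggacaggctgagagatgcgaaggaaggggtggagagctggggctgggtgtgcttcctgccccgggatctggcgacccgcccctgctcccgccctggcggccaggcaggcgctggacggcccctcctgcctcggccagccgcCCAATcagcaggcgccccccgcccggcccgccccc

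The stretch of Hmgcs1 lies at chr13:119690171-119690350 (plus strand), that of Mvk at chr5:114444089-114444268 (plus strand), that of Pmvk at chr3:89454361-89454540 (plus strand), that of Mvd at chr8:122443423-122443602 (minus strand), that of Ugt8a at chr3:125938653-125938832 (minus strand), that of Gal3st1 at chr11:3983456-3983635 (plus strand) and that of Elovl1 at chr4:118427913-118428092 (plus strand). Hmgcs1 held both motifs, Mvk 5 matches to the CCAAT box and Ugt8a none of either in the printed bases.

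Sterol synthesis transcripts differed little between the levels, while Ugt8a fell, and Gal3st1 and Elovl1 were lower on both sample-2 arrays without passing the test. Each gene was tested with limma on log2(intensity + 16), subtracting the sample-1 level from the sample-2 level, and counted as changed at a Benjamini-Hochberg adjusted p under 0.05 over all 27022 probe sets tested. All 33 members were bright enough to be tested, with means at or above percentile 75.2 of all probe sets. Of the 33, 1 fell and 0 rose in this limma test, against 0.857% of all genes that changed in either direction, 0.561% lower and 0.295% higher. Counted over probe sets, 1 of the 67 tested ones of the members passed, against 0.622% of all. At an unadjusted p under 0.05, 3 members were lower and 1 was higher, against 12.4% of all genes, 6.64% lower and 5.75% higher. The median difference of the members was 0.01, and that of all genes -0.01. By absolute size the median was 0.06 for the members and 0.13 for all genes. Over the 6827 genes whose mean intensity was at least that of the dimmest member, the median absolute difference was 0.10 and the median SE 0.11, against 0.14 for the SE of all genes.

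**Figure D1:**
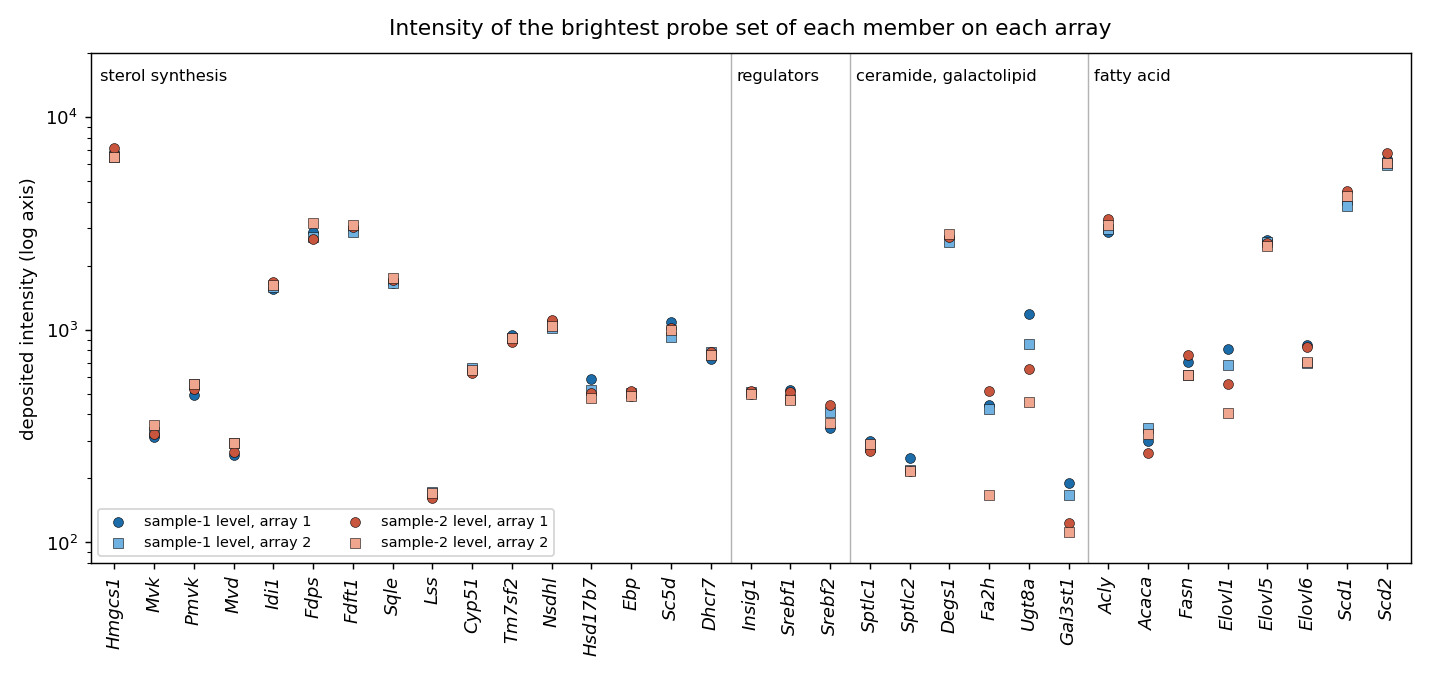
Deposited intensity, on a log axis, of the brightest probe set of each of the 33 members on each array, in pathway order, with circles for array 1 and squares for array 2 of a level. The 4 points of most sterol genes lie on top of each other, whereas those of Ugt8a spread from 1193 to 456. Brightness is not comparable between genes, since probes bind with different strength.

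The early, mevalonate part of sterol synthesis was nearly level. Hmgcs1, which makes the first dedicated intermediate of the pathway, measured 6669.6 ± 230.4 (SD, n = 2) at the sample-1 level and 6853 ± 481 at the sample-2 level, a difference of 0.04 on the log2 scale. Mvk, which adds the first phosphate to mevalonate, measured 315 and 329.5 on the sample-1 arrays, against 324 and 357 on the sample-2 arrays. The levels overlapped, and the difference of 0.08 ± 0.11 (SE) did not pass (limma, adjusted p = 0.86). Pmvk, the next kinase, measured 527 ± 45.6 and 541 ± 20.5. Mvd, which removes a carboxyl group to form isopentenyl diphosphate, measured 275 ± 25.5 and 279.6 ± 18.3. Their differences were 0.04 and 0.02, within the spread of the arrays. Idi1, the isomerase of that product, measured 1573 ± 33.2 and 1651 ± 46.2, with both sample-2 arrays above both sample-1 arrays. Fdps, which joins the units to farnesyl diphosphate, measured 2805 ± 104 and 2928 ± 352.

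The squalene steps differed as little. Fdft1, squalene synthase, measured 2981 and 2896 on the sample-1 arrays, against 3053 and 3124 on the sample-2 arrays. Sqle, squalene epoxidase, measured 1653 and 1655 and then 1722 and 1753. In both genes the sample-2 arrays lay above the sample-1 arrays, by 0.07 on the log2 scale, and neither passed (limma, adjusted p = 0.759 and 0.796). Lss, which closes the ring to lanosterol, measured 167.5 ± 6.40 and 166 ± 6.45.

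The late steps, which turn lanosterol into cholesterol, held the widest difference of the sterol genes. Hsd17b7, a ketoreductase in the removal of methyl groups, measured 588 and 522 on the sample-1 arrays, against 502 and 479 on the sample-2 arrays. The sample-2 arrays were both lower, and the difference of -0.17 ± 0.10 (SE) did not pass (limma, adjusted p = 0.581). Nsdhl, its partner in that removal, measured 1064.5 ± 56.5 and 1074 ± 47.8, a difference of 0.01. Cyp51, the lanosterol demethylase, measured 658 ± 5.37 and 636 ± 13.9, and Tm7sf2, a sterol reductase, 929 ± 17.8 and 894 ± 25.7. Ebp, a sterol isomerase, measured 498 ± 11.7 and 503 ± 17.9. Sc5d, a sterol desaturase, measured 1009 ± 119 and 1009 ± 10.9, and Dhcr7, the reductase that ends one branch of the pathway in cholesterol, 759.5 ± 44.1 and 778 ± 18.3.

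As a group, 0 of the 16 sterol enzymes passed the limma test, and 0 had an unadjusted p under 0.05. Their median difference was 0.03, and 12 lay above 0 and 4 below, where 51.2% of all genes lay below. Within 0.1 of 0 lay 15, as did 41.0% of all genes and 50.7% of the genes at least as bright as the dimmest member. The latter had a median SE of 0.11, against 0.06 to 0.12 for the sterol enzymes. They were not matched in brightness, so these shares do not compare genes of like precision. In 3 sterol enzymes the sample-2 arrays were both higher and in 3 both lower, 6 of 16, against 42.9% of all genes whose arrays did not overlap, 20.6% higher and 22.3% lower. The 95% intervals of the 16 differences, not adjusted for their number, reached from -0.39, the lower bound for Hsd17b7, to 0.31, the upper bound for Mvk. On a linear scale these bounds are 0.764-fold and 1.24-fold.

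The 3 regulators were also close to level. Insig1, which holds SREBP precursors in the endoplasmic reticulum when sterol is plentiful and is itself an SREBP target, measured 498 and 511 on the sample-1 arrays, against 515 and 501 on the sample-2 arrays. Srebf1 measured 524 and 474 and then 513 and 469, with the first array of each level above the second. Srebf2 measured 344 and 412 on the sample-1 arrays, against 442 and 363 on the sample-2 arrays. In all 3 the levels overlapped, the differences were 0.01, -0.02 and 0.09, and limma's adjusted p was 0.865 or more.

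**Figure D2:**
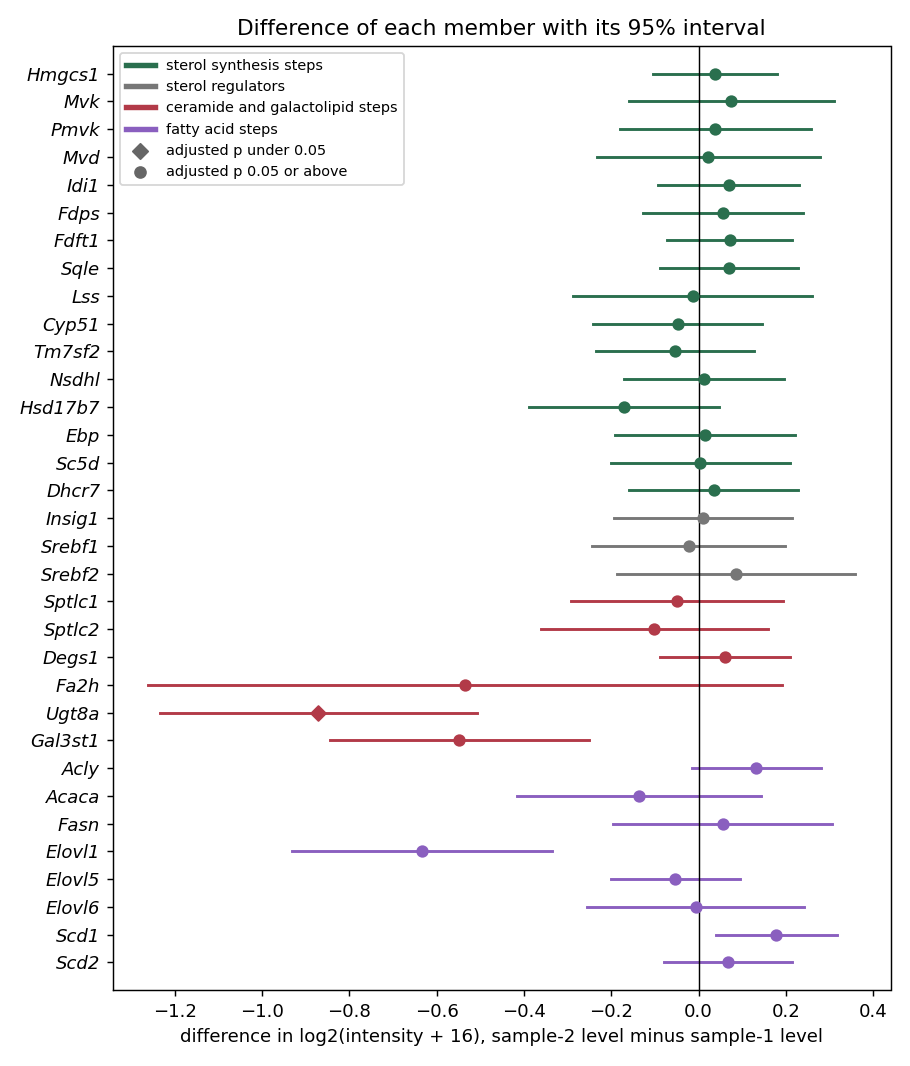
Difference in log2(intensity + 16) from the sample-1 to the sample-2 level of each member in pathway order, with bars for unadjusted 95% intervals and a diamond where the adjusted p is under 0.05. All 16 sterol enzymes lie between -0.17 and 0.08, while Ugt8a, Elovl1, Gal3st1 and Fa2h lie between -0.87 and -0.53, Fa2h with an interval that includes 0.

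Of the 3 galactolipid enzymes 1, Ugt8a, fell at the sample-2 level, and the other two, Gal3st1 and Fa2h, did not pass the test. Ugt8a, the ceramide galactosyltransferase that makes galactosylceramide, measured 1193 and 855 on the sample-1 arrays, against 651 and 456 on the sample-2 arrays. Both sample-2 arrays lay below both sample-1 arrays, although the arrays of each level also differed from each other. Ugt8a fell by 0.87 ± 0.17 (SE) on the log2 scale, to 0.541 of the sample-1 mean (limma, adjusted p = 0.0429), and was the 1 member that passed. Its other probe set measured 146 and 124 and then 110.7 and 70.6, a difference of -0.52 that did not pass (adjusted p = 0.291). The call of Ugt8a was lost without sample-1 array 1 (adjusted p = 0.143) and without sample-2 array 2 (0.135), and under 6 other settings, with adjusted p from 0.0508 with quantile normalization to 0.483 without the intensity trend. Its difference kept its sign in all 14 alternatives, between -1.12 and -0.62.

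Gal3st1, which sulfates galactosylceramide to sulfatide, measured 191 and 167 on the sample-1 arrays, against 123 and 112 on the sample-2 arrays. The levels did not overlap, and the difference of -0.55 ± 0.14 (SE), 0.655 of the sample-1 mean, missed the threshold (limma, unadjusted p = 0.00172, adjusted p = 0.115). Fa2h, which hydroxylates the fatty acids of myelin galactolipids, measured 445 and 424 on the sample-1 arrays, 513 on sample-2 array 1 and 167 on sample-2 array 2. Sample-2 array 2 stood apart from the other arrays, which lay close together. The difference of -0.53 ± 0.33 did not pass (limma, adjusted p = 0.612), and it was 0.23 without sample-2 array 2 and -1.30 without sample-2 array 1 (adjusted p = 0.000662). Fa2h has 1 probe set, so no second one could be set beside it.

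The ceramide steps upstream, which all cells use for their sphingolipids, lay nearer to 0. Sptlc2, a subunit of serine palmitoyltransferase, the entry enzyme of sphingolipid synthesis, measured 250.2 and 219.8 on the sample-1 arrays, against 218 and 217 on the sample-2 arrays. Sptlc1, the other subunit, measured 290.4 ± 15.02 and 279.99 ± 14.8, and Degs1, which places the double bond of ceramide, 2660.0 ± 97.6 and 2775 ± 59.3. Their differences were -0.10, -0.05 and 0.06, and none of these 3 passed (limma, adjusted p = 0.823, 0.92 and 0.814). Of the 6 ceramide and galactolipid genes 1 fell, against 0.561% of all genes, and 5 lay below 0, against 51.2%. Their median was -0.32, and -0.10 without sample-2 array 2. In 3 of them both arrays were lower at the sample-2 level, where 22.3% of all genes had that order. Whether the 3 galactolipid enzymes differ from the 3 ceramide enzymes was not tested.

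Among the 8 fatty acid enzymes, Elovl1 stood apart in size. Elovl1, the elongase of saturated and monounsaturated very long chains that enter sphingolipids, measured 811 and 684 on the sample-1 arrays, against 554 and 406 on the sample-2 arrays. The levels did not overlap, and the difference of -0.63 ± 0.14 (SE), 0.642 of the sample-1 mean, missed the threshold (limma, unadjusted p = 0.000593, adjusted p = 0.0703). Its other bright probe sets gave -0.54 and -0.44, and a dim one -0.27. The brightest is of the type _x_at, which can match more than 1 transcript, and the brightest without that suffix was the one at -0.44 (adjusted p = 0.186). Without sample-2 array 1 the gene passed (adjusted p = 0.0089), and with each of the other arrays left out it did not, with adjusted p up to 0.272.

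The enzymes of bulk fatty acid synthesis lay on both sides of 0. Acly, which supplies acetyl-CoA from citrate to both fatty acid and sterol synthesis, measured 2893 and 2976 on the sample-1 arrays, against 3322 and 3118 on the sample-2 arrays. Acaca, which makes malonyl-CoA, measured 299 and 346 and then 262 and 324, so its levels overlapped. Fasn, fatty acid synthase, measured 661 ± 65.4 and 690.2 ± 104. Scd1, a desaturase that makes monounsaturated fatty acids, measured 3941 and 3819 on the sample-1 arrays, against 4509 and 4279 on the sample-2 arrays. Acly and Scd1 were higher on both sample-2 arrays, by 0.13 ± 0.07 (SE) and 0.18 ± 0.06, and neither passed (limma, adjusted p = 0.514 and 0.298). Scd2, the related desaturase of nervous tissue, measured 6146.5 ± 283 and 6450.4 ± 466. Elovl6, which lengthens the palmitate made by Fasn, measured 774 ± 109 and 769.9 ± 90.3, and Elovl5, an elongase of polyunsaturated chains, 2615 ± 36.3 and 2519.7 ± 72.6.

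Counted together, 0 of the 8 fatty acid enzymes passed the limma test, with 1 lower and 1 higher at an unadjusted p under 0.05, and 4 lay on each side of 0 with a median of 0.02, or 0.13 without sample-2 array 2. The median difference was thus close to 0 for the sterol, regulator and fatty acid genes and -0.32 for the ceramide and galactolipid genes. No test compared these groups. The median of the ceramide and galactolipid genes was smaller in size without sample-2 array 2.

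**Figure D3:**
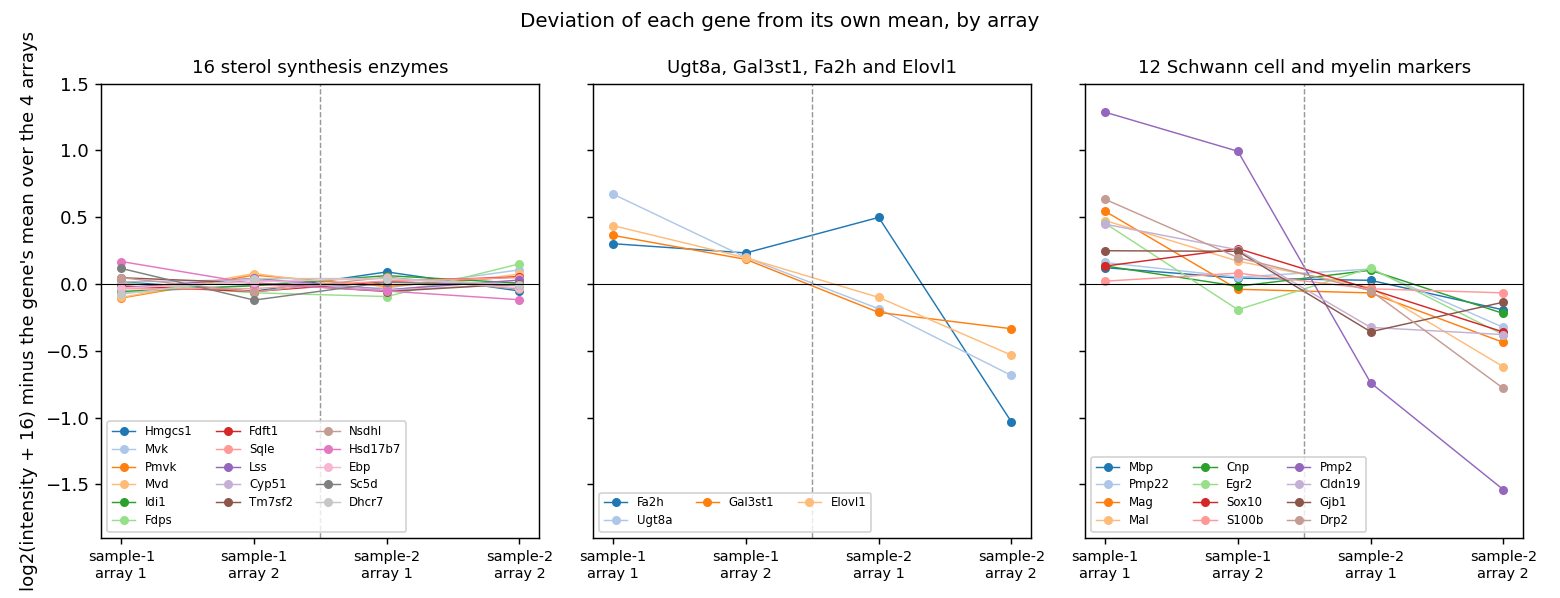
Deviation of log2(intensity + 16) from the gene's own mean over the 4 arrays, by array, for the 16 sterol enzymes, for Ugt8a, Gal3st1, Fa2h and Elovl1, and for 12 Schwann cell and myelin markers; lines join the values of a gene and the dashed line parts the levels. The sterol lines stay near 0, Fa2h is high on sample-2 array 1 and low on sample-2 array 2, and 11 of the 12 markers are lowest on sample-2 array 2.

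Markers of myelinating cells were read beside Ugt8a, Gal3st1 and Elovl1. Of 15 Schwann cell and myelin markers 12 had a named probe set. All 12 lay below 0 with a median of -0.45, against 51.2% of all genes below 0, and 1 fell, against 0.561%. Without sample-2 array 2 the median was -0.28 and 10 of the 12 lay below 0, with Pmp22 and Cnp above it, and without sample-1 array 1 it was -0.34 and 11 lay below 0. Pmp2, the marker that fell and whose protein binds lipids in peripheral myelin, measured 959 and 780 on the sample-1 arrays, against 223 and 121 on the sample-2 arrays (limma, adjusted p = 0.000366). Their summed intensity was 27039 and 25055 on the sample-1 arrays, against 24231 and 19551 on the sample-2 arrays. At an unadjusted p under 0.05, 8 of the 12 were lower, against 6.64% of all genes. On sample-2 array 2, 11 of the 12 had their lowest value, against 26.5% of all genes. Ugt8a, Gal3st1 and Elovl1 were each brightest on sample-1 array 1, then on sample-1 array 2, sample-2 array 1 and sample-2 array 2. Being lower on both sample-2 arrays, as in 22.3% of all genes, was why these 3 were singled out. That part of the order was thus fixed by the choice. The full order was found in 6 of the 12 markers and in 5.42% of all genes, the latter not chosen in this way. Among the 10 fibroblast markers described below, 6 had this order and 7 were lowest on sample-2 array 2. The part of the myelinating cells in the results of these 3 enzymes was not tested, and in whole ganglia fewer cells of a type and less RNA per cell cannot be told apart.

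Markers of other cell types that could carry lipid enzymes were read in the same way. Sensory neuron markers were nearly level, with a median of 0.06, 0 of 12 past the limma test and a summed intensity of 59692 to 64214. Their largest differences were those of Nefh, a neurofilament subunit, at -0.21, and of the transcription factor Pou4f1, at 0.20. Satellite glial cell markers had a median of -0.08 over 9 genes, 0 of which passed, and a summed intensity of 7373 and 7613 on the sample-1 arrays, against 7185 and 6849.8 on the sample-2 arrays. Their largest differences were -0.48 for Slc1a3, a glutamate transporter, and 0.45 for Hmcn1, neither of which passed. Both were dim, Slc1a3 at 57.6 and 50.7 and then 25.5 and 45.0, and Hmcn1 at 21.0 and 22.8 and then 37.7 and 34.2. Fibroblast markers had a median of -0.45 and sums of 9429 and 8421 and then 6412 and 5856. Past the threshold, 5 of 10 were lower, against 0.561% of all genes. These 5 were Col1a2, Col3a1, Dcn, Lum and Mfap5, all of the extracellular matrix, with differences from -1.01 to -0.44. Of the adipocyte markers 8 had a probe set and 5 were tested, 0 of which passed (limma), with 1 higher and 1 lower at an unadjusted p under 0.05. Adipoq, the fat cell hormone adiponectin, measured 29.0 to 39.9, and Fabp4, a fatty acid binding protein, 85.2 and 129 and then 147 and 169. Retn, the hormone resistin, measured 28.7 and 29.2 and then 9.73 and 3.28, a difference of -1.01, and Lipe, a lipase, 7.43 and 63.9 and then 47.9 and 50.3, a difference of 0.59. The sample-2 values of Retn and the first value of Lipe lay below 14.3 and are not told from background. Of 9 oligodendrocyte markers 4 were bright enough to be tested and 0 passed (limma), with 1 higher and 1 lower at an unadjusted p under 0.05. Mog, specific to central myelin, measured 0.799 to 1.58. Tspan2 was the brightest of the 9, at 782 and 852 on the sample-1 arrays, against 978 and 938 on the sample-2 arrays. Mag, also a Schwann cell marker, differed by -0.50 and Opalin by -0.39. Skeletal muscle markers were uneven, with sums of 1721, 8742, 2052 and 1338, the highest on sample-1 array 2. Their median of -1.15 was 0.01 without that array. Myh2 was the 1 of 10 that fell, against 0.561% of all genes (limma, adjusted p = 0.0319). It measured 42.8 and 120 on the sample-1 arrays, against 2.16 and 11.7 on the sample-2 arrays. Those sample-2 values are not told from background, so the size of the fall is uncertain. The parts of fibroblasts and muscle in the members' differences were not tested.

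Genes of the same pathways that are not members were counted from further lists. Of 12 further sterol genes 9 were tested and 0 passed (0 also at an unadjusted p under 0.05, limma), with a median of 0.01 and differences from -0.12 to 0.18. Those at the ends were Scap, the escort of SREBP, at 603 and 619 on the sample-1 arrays, against 597 and 529.9 on the sample-2 arrays, and Stard4, a sterol transporter, at 552 and 435.5 and then 540.4 and 574. Msmo1, the sterol methyl oxidase, measured 2750.2 and 2395 on the sample-1 arrays, against 2781 and 2399 on the sample-2 arrays, so its levels overlapped.

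Of 19 further fatty acid genes 17 were tested, with a median of 0.04. Of these 1 fell and 0 rose, against 0.561% and 0.295% of all genes. Thrsp, a nuclear protein that promotes lipogenesis, measured 262 and 308 on the sample-1 arrays, against 148 and 152 on the sample-2 arrays. It fell by 0.86 ± 0.12 (SE) on the log2 scale (limma, adjusted p = 0.0118), and its levels did not overlap. Without sample-1 array 2, the array with the high muscle markers, its adjusted p was 0.0586, without the filter on low signal 0.177 and without the intensity trend 0.389. Elovl2, an elongase of polyunsaturated chains, measured 99.3 and 77.5 and then 44.2 and 45.1, a difference of -0.78 ± 0.18 that missed the threshold (adjusted p = 0.0818). Acsl4, which activates polyunsaturated fatty acids, measured 649.7 and 512 and then 710.3 and 799 (adjusted p = 0.223).

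Of 14 further sphingolipid genes 0 passed the limma test, with 1 higher and 0 lower at an unadjusted p under 0.05, and the median was 0.01. Ugcg, which adds glucose to ceramide where Ugt8a adds galactose, measured 388 and 401 on the sample-1 arrays, against 488 and 529 on the sample-2 arrays. Its sample-2 arrays were both higher, by 0.35 ± 0.10 (SE), and it did not pass (adjusted p = 0.167). Sgms2, a sphingomyelin synthase, measured 380 and 303 and then 389 and 435, higher on both sample-2 arrays by 0.26 ± 0.12 (adjusted p = 0.47). Cers2, the ceramide synthase of very long chains, measured 558 and 518 and then 497 and 451, a difference of -0.18 ± 0.10 (adjusted p = 0.562). Galc and Arsa, the lysosomal enzymes that break down galactosylceramide and sulfatide, differed by -0.09 and 0.09, and neither passed (adjusted p = 0.851 and 0.802).

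**Figure D4:**
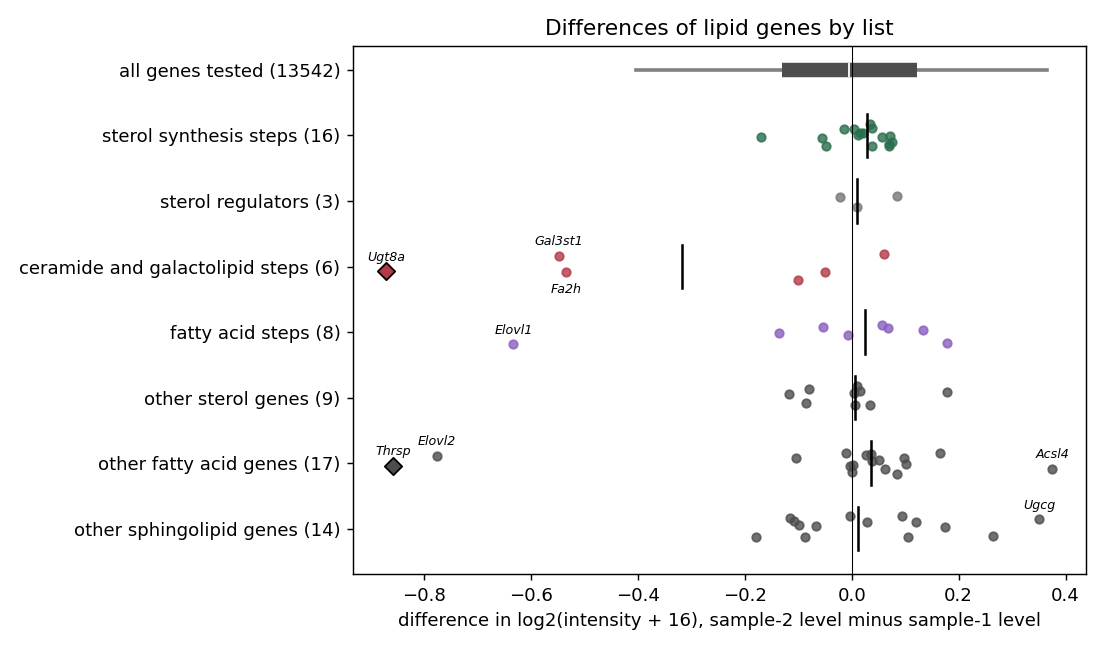
Difference in log2(intensity + 16) from the sample-1 to the sample-2 level of each tested gene by list, with a black line at the list's median, diamonds where the adjusted p is under 0.05 and vertical scatter within a list for legibility. The top bar spans the 25th to 75th percentile of all 13542 genes, -0.13 to 0.12, and its thin line the 5th to 95th, -0.40 to 0.37. Ugt8a, Elovl1, Gal3st1, Fa2h, Thrsp and Elovl2 lie below the 5th percentile and Acsl4 above the 95th.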

How the data were processed

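The deposited values are one intensity per probe set and array, on a linear scale. The authors had scaled the deposited intensities: with the top and bottom 2% removed, the mean was 150 on each array. Their software and steps are not stated, and detection calls were not used. Median intensity lay between 25.9 and 27.3 on the 4 arrays, whose number limits the precision. Arrays of a level correlated at r = 0.987 over the tested probe sets, and those of opposite levels at 0.982 to 0.986.

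Intensities were taken as log2(intensity + 16), which makes differences of dim genes smaller than the true ratio. Leaving out 64 controls and everything under the 40th percentile of the mean log2 value (an intensity of 14.3) kept 27022 of 45101 probe sets. limma 3.58.1 (R 4.3.3, lmFit and eBayes with an intensity trend, no covariate) gave differences, intervals and p-values, with Benjamini-Hochberg adjustment over all 27022. The SE of a gene mixes its own spread, with 2 residual degrees of freedom, and that of probe sets of like intensity, with 9.71. It can therefore be smaller or larger than the gene's own arrays alone would give. An exact permutation test of 2 against 2 arrays cannot go below 0.333, so none is given. Gene names came from the platform annotation, and probe sets with several symbols were not used for naming. Of 76 probe sets of the members 67 were tested. Data for this comparison were also simulated, with 27022 probe sets and noise drawn independently for each. There 22.5% of the 1.5-fold changes and 64.9% of the 2-fold ones were recovered, and 4.21% of the calls were false. Deviations that many genes share on an array were not simulated, so these rates may not hold for the real arrays.

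The members and lists were chosen with earlier results of these data known. Values on every array are given for members past the threshold and for the 4 of each group with the largest absolute difference, and for genes of further lists that passed, or failing that for the 2 largest differences; some others were chosen after their values were seen. Alternatives changed the pseudocount, filter, scaling, probe set choice, trend and block, or left out 1 array.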

Additional observations from a re-analysis of the deposited data

How the results depend on the processing

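Of the 33 members, 14 kept the sign of their difference in all 14 alternatives, and 10 of 462 values over members and alternatives were past adjusted p 0.05, none of them of a sterol enzyme or regulator. The count of members past the threshold, 1 as reported, and that of ceramide and galactolipid genes, also 1, were each 0 with a pseudocount of 1, without the filter, with quantile normalization, with arrays centred on their medians, without the intensity trend and with the mean of a gene's tested probe sets. Leaving out 1 array gave 0 to 3 members, 0 to 2 ceramide and galactolipid genes and 0 to 1 fatty acid genes, the higher counts without sample-2 array 1. With the array number as a replicate block, 3 members (Ugt8a, Gal3st1 and Elovl1), 2 of the ceramide and galactolipid genes and 1 of the fatty acid genes passed, all lower, as did 3 further fatty acid genes (2 lower, 1 higher) and 1 further sphingolipid gene. The labels do not say that the numbers pair arrays, and the array differences of the 2 levels correlated at 0.0263 over 27022 probe sets. The block raised the count over all probe sets from 168 to 793. Further fatty acid genes past the threshold, 1 as reported, were 0 without the filter and without the intensity trend, and 0 to 1 with an array left out. The count over all probe sets was 4 without the filter and 1 without the trend. The causes of these changes were not tested. At an intensity near 14.3 or below, no value here is told from background.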

Other observations

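Several members have more than 1 tested probe set, and these did not always share a sign. Of 21 such members 13 had probe sets on one side of 0 and 8 on both, and none of the 34 tested probe sets beyond the brightest passed (limma, adjusted p under 0.05). The 3 tested probe sets of Acly differed by 0.13, 0.18 and 0.20, and the 3 of Scd2 by 0.07, 0.16 and 0.03. Those of Hmgcs1 differed by 0.04, -0.07, -0.08 and 0.19. The widest range was that of Sptlc1, at -0.05 for the brightest, 0.10 and, for dim ones, 0.44 and -0.61, and the dimmer probe sets of Sc5d had 0.13 and -0.21. Hsd17b7 had -0.17, -0.19, 0.01 and, for a dim probe set, -0.45. Cyp51 had -0.05 for the brightest and 0.08 and 0.36 for dimmer ones.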
